A study of Homo sapiens with 3 samples.

Results

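The cells described here carried RNA of SOX17 and CER1 but none of TFAP2C, and were compared between human pluripotent stem cell colonies treated with CHIR+Activin and with BMP4. A cell was a member if it held at least 1 unique molecular identifier (UMI, a tag that counts a captured RNA molecule once) of SOX17, at least 5 of CER1 and 0 of TFAP2C. Of 16277 kept cells in both libraries, 440 were members (2.70%). The BMP4 library gave 303 of 9401 kept cells (3.22%, exact Clopper-Pearson 95% interval 2.88 to 3.60), and the CHIR+Activin library gave 137 of 6876 (1.99%, 1.68 to 2.35). Members were thus chosen by measured SOX17, CER1 and TFAP2C UMIs, so the values of these genes are a description only.

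HES3 MIXL1:GFP, a human embryonic stem cell line with a fluorescent reporter at the streak gene MIXL1, was grown on micropatterns, which confine a colony to a printed shape. Colonies were seeded with 10 µM of the ROCK inhibitor Y27632 and, after 24 h, treated for 48 h. The BMP4 group received BMP4 at 50 ng/mL, and the CHIR+Activin group received CHIR99021, a GSK3 inhibitor that activates WNT signalling, at 3 µM with Activin A, a ligand that signals like NODAL, at 100 ng/mL. About 10 micropatterns were pooled into 1 library of 10x Genomics 3' single-cell RNA sequencing for each treatment, with the same reporter line in every group. With 1 library a side, treatment and library cannot be told apart, no test between treatments was possible, and each interval here covers counting error only.

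In the gastrulating embryo, NODAL and WNT signals turn epiblast cells into primitive streak, from which definitive endoderm and mesoderm arise. EOMES acts upstream of both. Definitive endoderm is known by the transcription factors SOX17, FOXA2, GATA6 and HHEX together with CER1, a secreted antagonist of NODAL and BMP. MESP1 marks nascent mesoderm and HAND1 lateral and extraembryonic mesoderm. SOX17 also acts in human primordial germ cells with TFAP2C, the gene whose absence the rule required.

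Members held 5116191 UMIs in BMP4 (median 14831 UMIs and 4947 genes a cell) and 2874698 in CHIR+Activin (median 18105 UMIs and 5457 genes). Mitochondrial genes gave a median of 3.88% and 5.02% of a cell's UMIs. A doublet score placed 30 of the 303 BMP4 members (9.90%) and 9 of the 137 CHIR+Activin members (6.57%) in the highest 6% of their library, and no cell was removed for it. The libraries shared 12 barcodes among kept cells, and no barcode was a member in both.

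The 4 marker genes of the members, SOX17, CER1, GATA6 and EOMES, were within 2-fold between treatments in summed level. The rule chose cells on SOX17 and CER1, so their levels are no result. Levels are given as CPM, the UMIs of a gene per 1000000 UMIs, after summing UMIs over the members of a library, and ratios as log2 of CHIR+Activin over BMP4 with the exact conditional 95% interval. SOX17 (ENSG00000164736), which the rule used, had 352 CPM in each, and CER1 (ENSG00000147869), also used, had 1159 CPM in BMP4 and 1619 in CHIR+Activin. In single cells SOX17 ranged from 1 to 35 UMIs in BMP4 (median 4) and from 1 to 40 in CHIR+Activin (median 5). The SOX17 ranges overlapped almost fully. CER1 was higher in CHIR+Activin, ranging from 5 to 84 UMIs in BMP4 (median 17) and from 8 to 156 in CHIR+Activin (median 31).

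GATA6 (ENSG00000141448), an endoderm and cardiac mesoderm factor that the rule did not use, was found in nearly every member. Its lowest, median and highest values were 0, 8 and 23 UMIs a cell in BMP4 and 1, 10 and 34 in CHIR+Activin. Its summed level was 502 CPM in BMP4 and 569 CPM in CHIR+Activin, a log2 ratio of 0.18 (0.09 to 0.27). The cells of the treatments overlapped over most of this range, as the plot of UMIs per cell shows.

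EOMES (ENSG00000163508) had lowest, median and highest values of 0, 5 and 20 UMIs a cell in BMP4 and 1, 7 and 30 in CHIR+Activin. Its level was 311 CPM in BMP4 and 366 CPM in CHIR+Activin, and its median per 10000 UMIs of a cell was 3.21 in BMP4 and 3.22 in CHIR+Activin. LHX1, an anterior streak and endoderm factor, had 499 and 451 CPM, and GATA4 had 76.2 and 67.5 CPM. In the other kept cells of the same libraries the log2 ratios of these genes were −2.36 for GATA6, −0.73 for EOMES, −2.43 for LHX1 and −1.40 for GATA4.

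**Figure D1:**
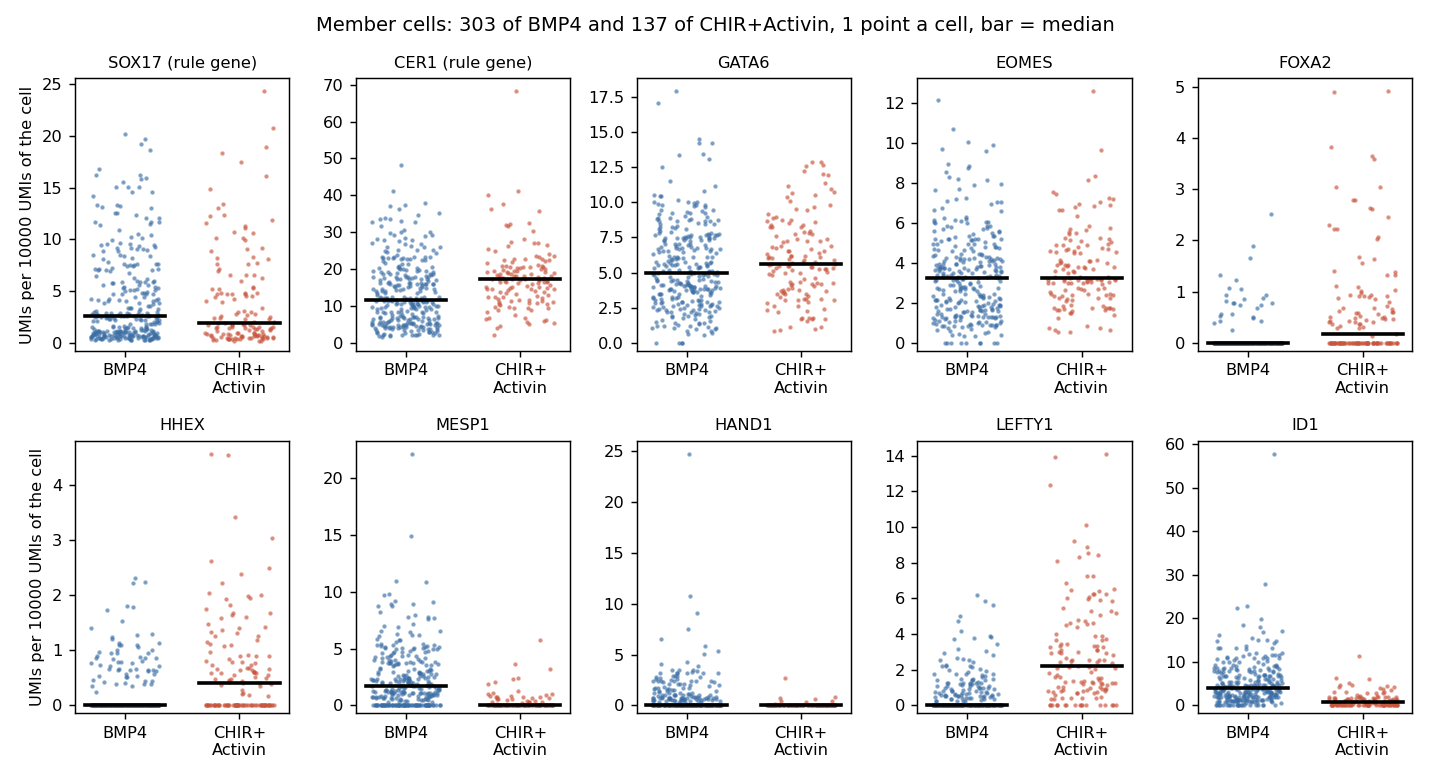
UMIs per 10000 UMIs of each cell (vertical axes) for 303 BMP4 and 137 CHIR+Activin members, 1 point a cell, with the median as a bar. GATA6 and EOMES overlap between treatments, FOXA2 and HHEX have a median of 0 only in BMP4, and MESP1 has a median of 0 in CHIR+Activin but not in BMP4.

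FOXA2 and HHEX, which mark definitive endoderm beside SOX17, were higher in the CHIR+Activin members. FOXA2 (ENSG00000125798), a pioneer factor of endoderm and node, had lowest, median and highest values of 0, 0 and 4 UMIs in BMP4 and 0, 1 and 9 in CHIR+Activin, with at least 1 UMI in 27 of 303 and in 70 of 137 cells. Its level was 7.62 CPM in BMP4 and 57.7 CPM in CHIR+Activin, 7.57-fold higher (log2 ratio 2.92, 2.41 to 3.46). Most BMP4 members held none, although cells with 1 or more were present in both libraries.

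HHEX (ENSG00000152804), a homeobox factor of anterior endoderm, had lowest, median and highest values of 0, 0 and 3 UMIs in BMP4 and 0, 1 and 7 in CHIR+Activin. It was found in 64 of 303 and 77 of 137 cells, at 16.0 and 53.9 CPM, a log2 ratio of 1.75 (1.35 to 2.15). KIT, a receptor used to sort endoderm, had 21.5 and 46.6 CPM (log2 ratio 1.12, and 0.76 where the rule was applied to cells thinned to 10000 UMIs). The chemokine receptor CXCR4, another surface marker of endoderm, was low in both, with 5.67 and 14.3 CPM.

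Since the CHIR+Activin cells were deeper, shares of cells with a UMI were taken after drawing 10000 UMIs from each cell. This left 243 BMP4 members and 132 CHIR+Activin members, with 60 and 5 shallower cells left out. Cells with at least 3 SOX2 UMIs and none of CER1 or TFAP2C, which are epiblast-like and should hold little endoderm or mesoderm RNA, served as the background (216 thinned cells of BMP4 and 813 of CHIR+Activin, with median depths of 16858 and 19423 UMIs before thinning). GATA6 was found in 97.9% of BMP4 and 100% of CHIR+Activin members, against 10.2% and 1.11% of the background cells. LHX1 was found in 87.7% and 81.1% of members, against 2.31% and 0.615%.

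FOXA2 was found in 6.17% of thinned BMP4 members (3.50 to 9.98) and in 4.63% of that library's background cells (2.24 to 8.35), with overlapping intervals. In CHIR+Activin it was found in 36.4% of members (28.2 to 45.2) and 12.4% of background cells. Before thinning the FOXA2 shares were 8.91% and 51.1%. HHEX was found in 13.2% and 40.2% of thinned members against 1.85% and 3.81% of the background cells, so it exceeded the background in both libraries.

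Of the endoderm genes that the rule did not use, GATA6, EOMES, LHX1 and HHEX were found in a larger share of members than of background cells in both libraries. For FOXA2 in BMP4 the share did not exceed that of SOX2 cells beyond counting error, although its summed level in BMP4 members, 7.62 CPM (5.42 to 10.4), was above the 3.99 CPM of FOXA2 in empty droplets and the 1.56 CPM in CER1-high cells without SOX17. Because FOXA2 was low and MESP1 frequent in BMP4, the cells are called SOX17 and CER1 members here, without a cell type name.

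**Figure D2:**
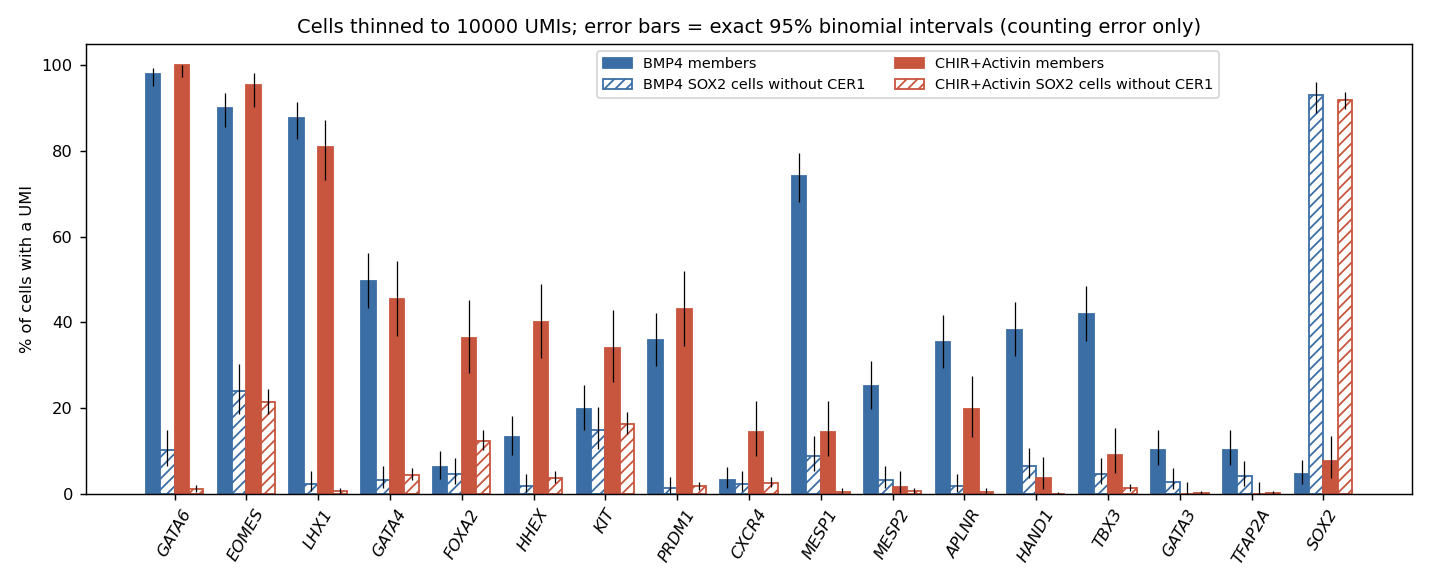
Percent of thinned cells with at least 1 UMI (vertical axis) for members (filled bars) and SOX2 cells without CER1 (hatched bars) of each library, with exact 95% binomial intervals. GATA6, EOMES and LHX1 are found in most members of both treatments, FOXA2 and HHEX in more of the CHIR+Activin members, and MESP1, HAND1 and TBX3 in more of the BMP4 members.

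Mesoderm transcription factors were higher in the BMP4 members. MESP1 (ENSG00000166823) had lowest, median and highest values of 0, 3 and 33 UMIs in BMP4 and 0, 0 and 29 in CHIR+Activin, with a UMI in 232 of 303 and 32 of 137 cells. Its level was 267 CPM in BMP4 and 35.1 CPM in CHIR+Activin, 7.61-fold lower (log2 ratio −2.93, −3.23 to −2.64). The log2 ratio of MESP1 was −5.89 in the other kept cells. A minority of CHIR+Activin members held MESP1, and per 10000 UMIs of a cell the highest value was 5.73 in CHIR+Activin and 22.2 in BMP4. With at least 2 SOX17 UMIs required, the log2 ratio of MESP1 was −3.59.

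HAND1 (ENSG00000113196) had lowest, median and highest values of 0, 0 and 19 UMIs in BMP4 and 0, 0 and 6 in CHIR+Activin, with a UMI in 125 and 8 cells. Its level of 91.9 CPM in BMP4 was 15.5-fold that of 5.91 CPM in CHIR+Activin (log2 ratio −3.96, −4.75 to −3.26). Both medians were 0, so most members of either treatment held no HAND1 UMI. With at least 2 SOX17 UMIs required, its log2 ratio was −5.66, from 266 and 3 UMIs. The log2 ratio of HAND1 was −6.90 in the other kept cells. MESP2, a partner of MESP1 in paraxial mesoderm, had 37.9 and 3.13 CPM, the T-box factor TBX3 74.1 and 8.70 CPM, and APLNR, the apelin receptor of early mesoderm, 53.9 and 20.5 CPM.

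RNA of mesoderm genes was also present outside cells in the BMP4 library. Its empty droplets, 1591320 barcodes under 100 UMIs with 7268274 UMIs in all, held 169 CPM of MESP1, 102 of HAND1 and 1032 of NTS. After thinning, MESP1 was found in 74.1% of BMP4 members (68.1 to 79.5) against 8.80% of background cells (5.38 to 13.4), and HAND1 in 38.3% (32.1 to 44.7) against 6.48% (3.59 to 10.6). Both exceeded the background beyond counting error. In CHIR+Activin, MESP1 was found in 14.4% of members against 0.492% of background cells. Empty droplets of the CHIR+Activin library were not analysed here.

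Few CHIR+Activin members held both FOXA2 or HHEX and MESP1 or HAND1, but few held MESP1 or HAND1 at all. Whether cells with both kinds were rarer than the separate frequencies imply was not tested. Of 132 thinned cells there, 75 (56.8%, 47.9 to 65.4) held FOXA2 or HHEX without MESP1 or HAND1, 15 (11.4%) held MESP1 or HAND1 alone, 5 (3.79%) held both kinds and 37 (28.0%) neither. Of 243 thinned BMP4 members, 16 (6.58%, 3.81 to 10.5) held FOXA2 or HHEX alone, 158 (65.0%, 58.7 to 71.0) MESP1 or HAND1 alone, 29 (11.9%) both kinds and 40 (16.5%) neither. A cell without a UMI of a gene can still express it at this depth, so these classes are ranges of detection and not cell types.

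Over all genes, 7278 had a mean of at least 20 CPM over both groups of members and were compared. Of these, 127 were at least 2-fold higher in CHIR+Activin members (1.74% of genes compared) and 58 were at least 2-fold lower (0.797%), 185 in all (2.54%). The median log2 ratio over all 7278 genes was 0.01. The interval lay wholly past 2-fold for 60 of the higher and 31 of the lower genes, and 18 and 17 genes were at least 4-fold apart. In the other kept cells, 97 of 7332 genes were 2-fold higher (1.32%) and 145 lower (1.98%), 242 in all (3.3%). Of the 127 genes higher in members, 29 (22.8%) were also 2-fold higher in the other kept cells, and 31 had a ratio below 0 there. Of the 58 lower genes, 40 (69.0%) were also 2-fold lower there, and 0 had a ratio above 0. The counts describe these libraries and carry no test.

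The genes named next are the 12 in each direction whose interval lay farthest from 0. Of the higher, DSCAM (ENSG00000171587), a neural adhesion molecule, was the most abundant, with lowest, median and highest values of 0, 0 and 17 UMIs in BMP4 and 0, 10 and 71 in CHIR+Activin. It had 79.4 and 656 CPM (8.26-fold, log2 ratio 3.05), and was found in 33.3% of thinned BMP4 and 87.1% of thinned CHIR+Activin members against 7.41% and 5.90% of background cells. In the other kept cells its log2 ratio was 1.37.

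PRSS2 (ENSG00000275896), a trypsinogen gene with near-identical copies among which reads may be split, had 6.45 CPM in BMP4 and 74.1 in CHIR+Activin members (log2 ratio 3.52). It was found in 4.53% and 42.4% of thinned members and in 0.123% of CHIR+Activin background cells. PLSCR2, a phospholipid scramblase gene, had 20.9 and 145 CPM (log2 ratio 2.79, against 0.87 in the other kept cells). The receptor tyrosine kinase ERBB4 had 5.28 and 37.9 CPM, and SLC1A1, a glutamate transporter, 8.01 and 56.0 CPM. ERBB4 was found in only 36 of 137 CHIR+Activin members, and the tenth of members with the most gave 75.2% of its UMIs. For SLC1A1 these values were 80 of 137 and 37.3%.

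The remaining higher genes of this group were FOXA2 and LEFTY1, described separately, and ACOXL, MCF2L2, NCR1, LINC00378 and LINC01695, with log2 ratios of 2.62, 2.22, 2.38, 3.02 and 2.70. The last 2 are long noncoding RNA genes. In members without a UMI of the mesoderm genes MESP1, MESP2, HAND1, TBX6 and APLNR, a subset chosen after the values were seen, the log2 ratios were 2.14 for DSCAM, 2.60 for PRSS2, 1.68 for SLC1A1 and 2.01 for ACOXL. All 12 were also above 0 in the other kept cells, where their log2 ratios ranged from 0.59 for LINC01695 to 3.87 for FOXA2.

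The lower genes held HAND1, MESP1, MESP2, TBX3, ID1 and 7 others. NTS (ENSG00000133636), the neurotensin precursor gene, had 923 CPM in BMP4 and 107 in CHIR+Activin members (log2 ratio −3.10), with the 1032 CPM in empty droplets given before. It was found in 91.8% of thinned BMP4 members but also in 70.4% of that library's background cells. HPGD, a prostaglandin-degrading enzyme, had 42.4 CPM in BMP4 and only 2 UMIs in CHIR+Activin members (log2 ratio −5.93, −8.98 to −4.06). Empty droplets of BMP4 held 147 CPM of HPGD, and BMP4 cells with both SOX17 and TFAP2C held 457 CPM. With the rule applied to thinned cells HPGD had 45 UMIs in BMP4 and 0 in CHIR+Activin, a log2 ratio of −3.21 with 3 counts as the floor. The matrix link protein gene HAPLN1 had 37.7 and 2.78 CPM (log2 ratio −3.76), with 81.6 CPM in BMP4 empty droplets. In members without a UMI of the same 5 mesoderm genes its ratio was −1.30, from 4 UMIs in each library, and that of BMPER was −1.48.

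CLDN10, a tight junction claudin, had 76.0 and 12.5 CPM (log2 ratio −2.60, and −3.75 without the TFAP2C condition). Empty droplets of BMP4 held 260 CPM of CLDN10, and BMP4 cells with both SOX17 and TFAP2C held 635 CPM. The BMP-binding protein gene BMPER had 76.4 and 11.5 CPM, with 51.0 CPM in BMP4 empty droplets. RYR3, a calcium release channel gene, had 37.3 and 3.83 CPM, with 32.7 CPM in BMP4 empty droplets. The noncoding PCAT14 had 75.8 and 2.09 CPM, with 208 CPM in BMP4 empty droplets. The part of free RNA in these levels was not tested. All 12 lower genes were also below 0 in the other kept cells.

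**Figure D3:**
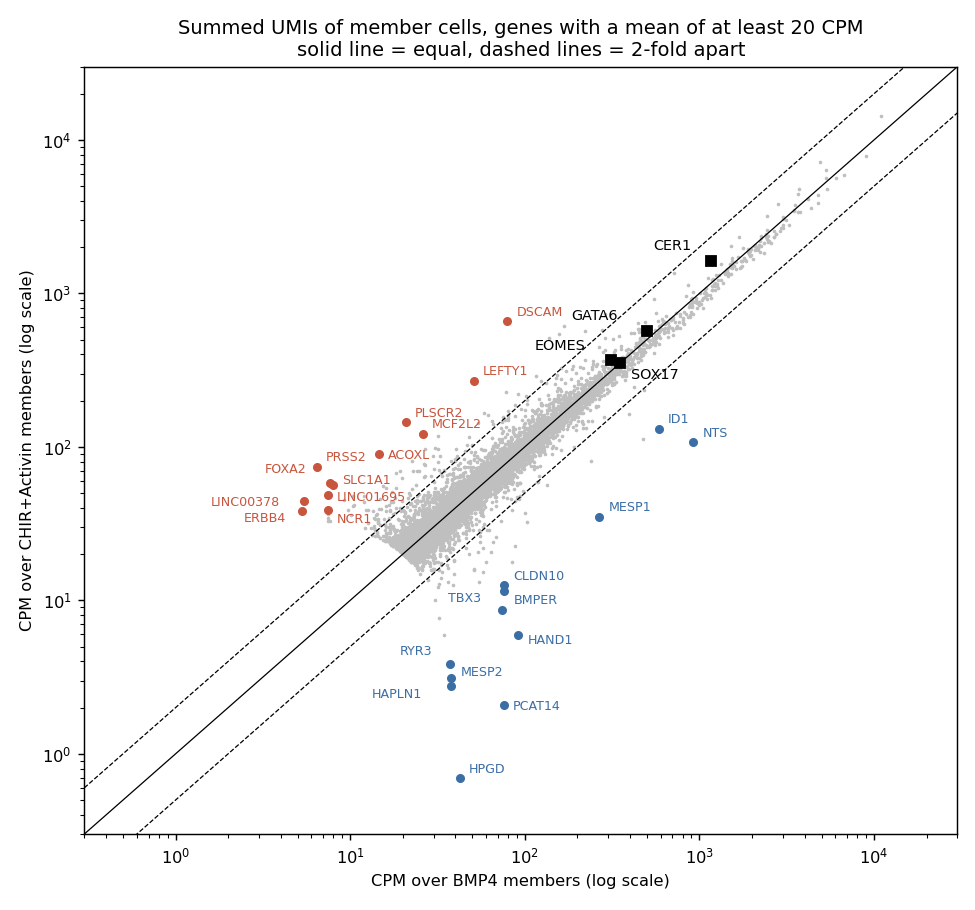
CPM summed over members of BMP4 (horizontal, log scale) and CHIR+Activin (vertical, log scale) for the 7278 genes compared, with the 4 marker genes as squares and the 12 higher and 12 lower named genes in colour. The marker genes lie between the dashed 2-fold lines, and HAND1, MESP1 and FOXA2 lie outside them.

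Gene lists were read by counts of members past 2-fold beside the 1.74% higher and 0.797% lower of all genes compared, leaving out SOX17, CER1 and TFAP2C. List medians in the other kept cells cover the genes with a mean of at least 20 CPM there, which can differ from those compared in members. Of 14 definitive endoderm genes compared, FOXA2, HHEX and KIT were 2-fold higher and none lower, with a median log2 ratio of 0.57 against 0.01 over all genes. MIXL1 (451 and 589 CPM), GSC (61.2 and 88.0 CPM) and OTX2 (54.5 and 83.8 CPM), which act in the anterior streak, stayed within 2-fold. PRDM1, a repressor shared by endoderm and germ cells, had 45.3 and 74.1 CPM, a log2 ratio of 0.71 beside −2.71 in the other kept cells. In members without a UMI of the 5 mesoderm genes named before the log2 ratio was −0.02 for PRDM1 and −0.12 for GSC. Of 13 hypoblast and visceral endoderm genes, 1 was higher (FOXA2, in both lists) and 1 lower (RSPO3), with a median of −0.04.

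Of 9 nascent and paraxial mesoderm genes 0 were higher and 6 lower (median −1.39), and of 6 lateral and extraembryonic mesoderm genes 0 were higher and 5 lower (median −2.31). In the other kept cells the medians were −2.26 and −4.93. The summed level of the former list in members was 734 CPM in BMP4 and 268 in CHIR+Activin. That of the latter was 402 and 131 CPM. HAPLN1, of the former, is also in the matrix list, and HAND1, of the latter, is also among the BMP targets. The results of these lists are therefore not separate. In the 42 BMP4 and 70 CHIR+Activin members without a UMI of the 5 mesoderm genes, the log2 ratio was 2.35 for FOXA2, 1.22 for HHEX and −2.17 for ID1.

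Germ cell, amnion and epiblast genes were compared in the same way. Of 5 germ cell genes compared, KIT alone was 2-fold higher. None of the 15 amnion and trophoblast genes reached 20 CPM, and their summed level was 47.3 CPM in BMP4 and 4.87 in CHIR+Activin, with 4 and 8 genes at 0. TFAP2A had 61 UMIs in BMP4 members and 0 in CHIR+Activin, at least 11.4-fold lower when 3 counts over the group (1.04 CPM) are taken as the floor. The amnion factor GATA3 had 72 UMIs and 1 UMI (log2 ratio −5.34, −10.7 to −2.81). Empty droplets of BMP4 held 25.9 CPM of TFAP2A and 21.1 of GATA3, against 11.9 and 14.1 CPM in BMP4 members. Of 18 pluripotent epiblast genes none was 2-fold apart, with POU5F1 at 743 and 593 CPM.

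Antagonists and the ligand of the NODAL pathway were higher in CHIR+Activin members. LEFTY1 (ENSG00000243709), a secreted inhibitor of NODAL, had lowest, median and highest values of 0, 0 and 10 UMIs in BMP4 and 0, 5 and 26 in CHIR+Activin. Its level was 51.0 CPM in BMP4 and 270.3 CPM in CHIR+Activin, 5.30-fold higher (log2 ratio 2.41, 2.20 to 2.61, and 2.26 in the other kept cells). LEFTY2, a near-identical neighbour in sequence so that reads may be split between them, had 10.4 and 47.7 CPM (log2 ratio 2.20). Without the TFAP2C condition the log2 ratio of LEFTY2 was 0.93, within 2-fold. The ligand gene NODAL had 87.4 and 186 CPM (log2 ratio 1.09).

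Of 16 NODAL and Activin target genes, these 3 were the higher ones, 1 was lower (BAMBI) and the median was 0.31. Of 9 secreted antagonists of NODAL, BMP and WNT, 4 were higher (LEFTY1, LEFTY2 and the WNT antagonists DKK4 and SFRP1) and 1 lower (BMPER), with a median of 0.93. DKK4 had 19.7 and 62.6 CPM and SFRP1 11.9 and 47.7 CPM. In the members without a UMI of the 5 mesoderm genes, the log2 ratio was 0.10 for DKK4, 0.88 for NODAL and 2.18 for SFRP1, and that of DKK1 was 0.18. DKK1, the WNT co-receptor blocker of anterior endoderm, had 153 and 292 CPM, a log2 ratio of 0.93 beside −0.95 in the other kept cells.

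BMP target genes were lower in CHIR+Activin members, which had received no BMP4. ID1 (ENSG00000125968), an inhibitor of bHLH factors and a direct BMP target, had lowest, median and highest values of 0, 6 and 84 UMIs in BMP4 and 0, 1 and 31 in CHIR+Activin. Its level was 586 CPM in BMP4 and 131 CPM in CHIR+Activin (log2 ratio −2.16, and −2.16 in the other kept cells), with 723 CPM in BMP4 empty droplets. ID3 had 472 and 113 CPM and ID2 68.6 and 25.7 CPM.

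Of 9 BMP targets compared, 7 were 2-fold lower and none higher, with a median of −2.07, close to −2.16 in the other kept cells. The lower ones were ID1, ID2, ID3, the homeobox gene MSX2, the decoy receptor gene BAMBI, TBX3 and HAND1. HAND1 was also counted in the lateral and extraembryonic mesoderm list. The inhibitory SMAD genes SMAD6 and SMAD7 had log2 ratios of −0.34 and 0.19. The ligand gene BMP4 had 34.4 CPM in BMP4 members and 5.91 in CHIR+Activin, and of 15 BMP ligand and receptor genes SMAD3, which carries NODAL and Activin signals, was higher (32.3 and 70.6 CPM) and the BMP4 gene alone was lower (median 0.03).

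Of 11 WNT feedback and target genes, 2 were higher and 1 lower, with a median of 0.03 beside −0.95 in the other kept cells. SP5, a transcriptional feedback target of WNT, had 79.8 and 160 CPM. Of 10 WNT ligand and receptor genes, FZD5 (18.0 and 46.3 CPM) was higher, and the ligand WNT5A (88.4 and 22.6 CPM) and the enhancer RSPO3 (38.7 and 12.5 CPM) lower. Of 15 FGF and ERK feedback genes FGF8 alone was higher, with 7.62 and 33.0 CPM. FGF17, the most abundant ligand of that family here, had 548 and 924 CPM (log2 ratio 0.75).

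The adhesion, matrix and metabolic lists each held 1 or 2 genes 2-fold apart, and the cell cycle lists held 0. Over all genes compared, 1.74% were higher and 0.797% lower. Of 8 cadherin and EMT genes, 1 was lower (FN1, fibronectin, with 101 and 36.9 CPM), and N-cadherin CDH2 had 445 and 644 CPM. Of 17 matrix genes, 2 were lower (median −0.09), and of 10 tight junction and keratin genes CLDN10 was lower. None of 20 S phase and 20 G2 and mitosis genes was 2-fold apart (medians −0.02 and −0.04). Of 15 glycolysis genes, the glucose transporter SLC2A3 alone was higher (288 and 735 CPM), and of 15 cholesterol synthesis genes HMGCS1 (101 and 213 CPM), with list medians of −0.02 and 0.45. Without cells holding a UMI of those mesoderm genes, the log2 ratios of SP5, FZD5, WNT5A, BMP4, FN1 and HMGCS1 were 0.45, 0.86, −0.77, −0.88, −0.65 and 0.74, all within 2-fold.

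**Figure D4:**
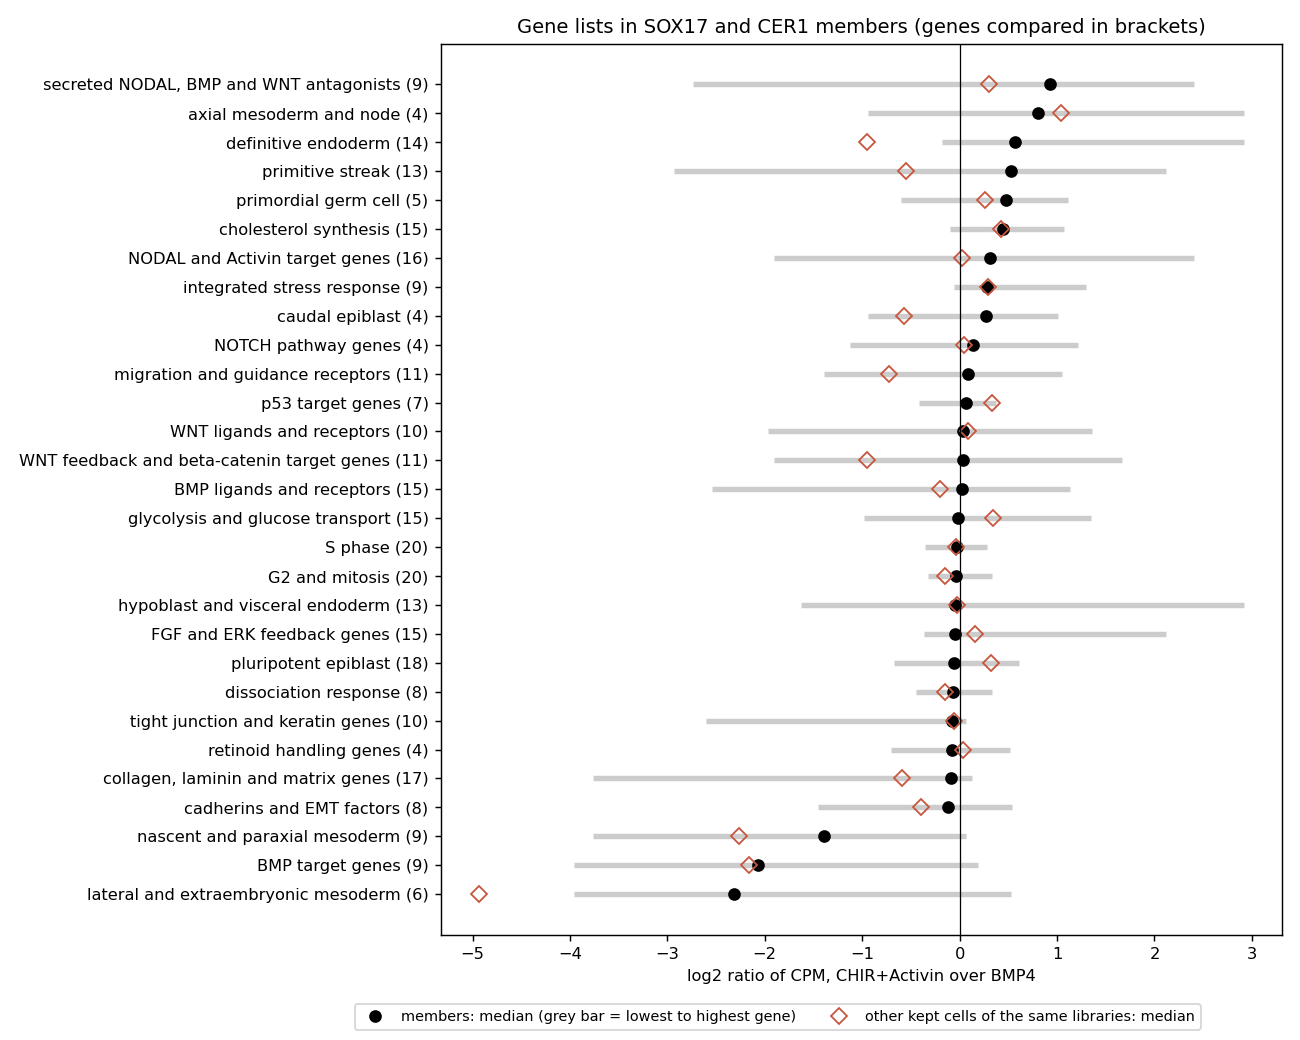
Median log2 ratio (horizontal axis) of each gene list in members (black points, with a grey bar from the lowest to the highest gene) and in the other kept cells (open diamonds), for lists with at least 3 genes compared in members. BMP targets have similar medians in both (−2.07 and −2.16). The definitive endoderm median is 0.57 over 14 genes in members and −0.95 over 7 genes in other cells, so the gene sets differ.

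Members were set beside CER1-high cells without SOX17 of the same library, 1663 in BMP4 and 746 in CHIR+Activin, which met every condition but SOX17. The rule chose on SOX17, so these values are a description. In CHIR+Activin, 91 of 7295 genes were 2-fold higher in members (1.25%) and 46 lower (0.631%), and in BMP4 14 of 7217 were higher (0.194%) and 13 lower (0.18%). Both libraries shared 9 higher genes of 6908 compared in both (0.13%), SOX17 included, and 0 lower genes.

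PRDM1 was among the shared higher genes, with 74.1 CPM in CHIR+Activin members and 15.4 CPM in SOX17-negative cells there (log2 ratio 2.26), and 45.3 and 6.44 CPM in BMP4 (2.82). The lipoprotein receptor gene LRP1B had log2 ratios of 3.60 in CHIR+Activin and 2.92 in BMP4, and DSCAM 1.82 and 1.18. The other 5 were DNAJC15, ESRRG, GPR176, LINC02955 and ENSG00000292246, a gene that the files list by ID alone.

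Other endoderm genes did not behave alike in the libraries. HHEX had a log2 ratio of members over SOX17-negative cells of 2.11 in CHIR+Activin and 0.85 in BMP4, LHX1 1.85 and 0.24, and GATA6 1.21 and −0.16. FOXA2 was lower in CHIR+Activin members than in SOX17-negative cells there (57.7 and 81.7 CPM, log2 ratio −0.50), whereas in BMP4 it had 7.62 and 1.56 CPM (2.29). FOXA2 RNA in CHIR+Activin was therefore not confined to members. MESP1 had 0.48 in CHIR+Activin and −0.84 in BMP4.

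Values within the members were also set out by their SOX17 UMIs, with 88, 62 and 153 BMP4 cells and 39, 25 and 73 CHIR+Activin cells holding 1, 2 to 3, and 4 or more. In BMP4, MESP1 had 328, 324 and 208 CPM and HAND1 128, 111 and 61.8 CPM in that order. In CHIR+Activin, MESP1 had 70.3, 33.2 and 15.4 CPM, HHEX 35.7, 50.8 and 65.5 CPM, and FOXA2 39.2, 29.3 and 78.2 CPM. The intervals of the lowest and highest SOX17 class did not overlap for these values. They did for HHEX in BMP4, which had 15.1, 13.2 and 17.7 CPM. These intervals count UMIs and not cells. In CHIR+Activin, 1 cell gave 29 of the 61 MESP1 UMIs of the class with 1 SOX17 UMI. The tenth of CHIR+Activin members with the most gave 82.2% of MESP1 UMIs. The fall of MESP1 with SOX17 there thus rests in part on 1 cell. CHIR+Activin CER1-high cells without SOX17 held 25.1 CPM of MESP1, 12.5 of HHEX and 81.7 of FOXA2. MESP1 and FOXA2 there thus did not change steadily with SOX17. Even with 4 or more SOX17 UMIs, FOXA2 was at 12.2 CPM in BMP4 and 78.2 in CHIR+Activin.

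**Figure D5:**
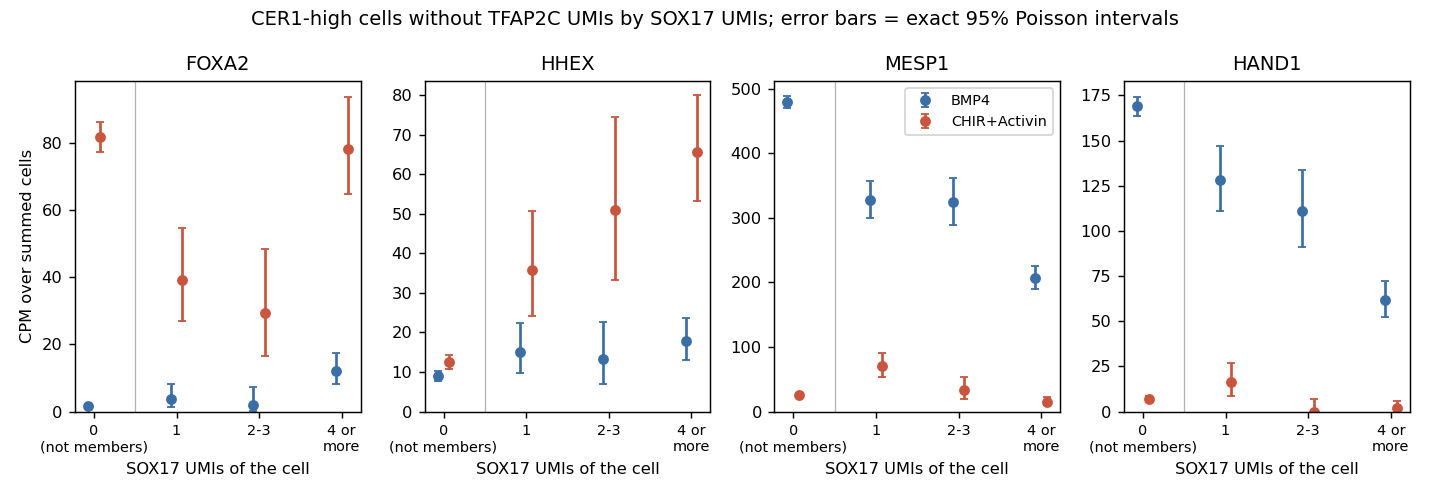
Summed CPM (vertical axes, with exact 95% Poisson intervals) of FOXA2, HHEX, MESP1 and HAND1 by the SOX17 UMIs of CER1-high cells without TFAP2C (horizontal axis), with cells at 0 SOX17 as non-members. MESP1 is lower at 4 or more SOX17 UMIs than at 1 UMI in both libraries, and FOXA2 is above 25 CPM only in CHIR+Activin. In CHIR+Activin, 1 cell gave 29 of the 61 MESP1 UMIs at 1 SOX17 UMI.

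Near the CER1 threshold lay 21 BMP4 members with 5 to 6 CER1 UMIs and 48 SOX17 cells just outside with 3 to 4. The former had 415 CPM of MESP1, 385 of GATA6 and 152 of HAND1, and the latter 326, 323 and 100. No CHIR+Activin member held 5 to 6 CER1 UMIs, and 2 cells lay just outside. Exactly 1 TFAP2C UMI kept out 38 BMP4 and 9 CHIR+Activin cells.

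The share of cells with a SOX17 UMI was also taken in cells outside the rule. Among cells with at least 5 CER1 UMIs and no TFAP2C, 15.4% held SOX17 in BMP4 (303 of 1966) and 15.5% in CHIR+Activin (137 of 883). Among SOX2 cells without CER1 the shares were 1.69% (4 of 236) and 0.363% (3 of 827). Among all cells without CER1 and TFAP2C, whose median depths were 11814 and 15804 UMIs, they were 8.51% in BMP4 (329 of 3865) and 0.289% in CHIR+Activin (9 of 3118). SOX17 in BMP4 was thus found in many cells without CER1. Empty droplets of BMP4 held 45.5 CPM of SOX17, and the 88 BMP4 members with 1 SOX17 UMI stood at 55.2 CPM, a level that the rule sets. The part of free RNA in members with 1 SOX17 UMI was not tested.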

How the data were processed

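RNA was counted in single cells of 3 libraries, BMP4, CHIR and CHIR+Activin, with 1 library a treatment. Each deposited matrix gives unnormalized UMI counts of genes by barcodes. Per the file headers, the authors counted with Cell Ranger 8.0.1. Seurat appears in the submitters' processing notes. Genome build, annotation and strand setting: not given in the sources used here. Genes therefore carry the files' Ensembl IDs and symbols and no coordinates.

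Barcodes with at least 2000 genes and at most 15% mitochondrial UMIs were kept. The BMP4 matrix holds all 1935344 droplet barcodes, so at least 3739 UMIs were also required there. This kept 9401, 7084 and 6876 cells, with median depths of 12623, 22919.5 and 17202 UMIs. Doublets were scored by the Scrublet procedure but not removed, except in an alternative.

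UMIs were summed over members and scaled to CPM. Ratios carry exact conditional binomial intervals, levels exact Poisson intervals and shares Clopper-Pearson intervals, at 95%. Genes with a mean of at least 20 CPM over both groups were compared, with 0 counts set at 3 counts (0.586 CPM in BMP4, 1.04 in CHIR+Activin). The ratio code was tested on simulated data. Single genes were named as the 12 in each direction whose interval bound nearest to 0 lay farthest from it, without rule, mitochondrial and ribosomal genes, and otherwise as list examples or defining genes. Genes discussed in the comparisons within a library or by SOX17 class were partly chosen after their values were seen. The members, the 32 gene lists and the tests were chosen with earlier results of these data known. Alternatives changed the rule, the doublet treatment, the filters and the scaling.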

Additional observations from a re-analysis of the deposited data

Results flagged for a closer look

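The CHIR library, whose cells received 6 µM CHIR99021 without Activin A and entered no comparison, held 5 cells that met the same rule, of 7084 kept (0.0706%, exact 95% interval 0.0229 to 0.165), a signal outside the libraries compared. These cells held 16 SOX17, 186 CER1, 72 GATA6 and 48 EOMES UMIs in all, with 11 of FOXA2 and 9 of HHEX, and 0 of MESP1, HAND1 and APLNR. No explanation was tested.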

How the results depend on the processing

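The share of members in BMP4, 3.22%, became 3.73% with at least 3 CER1 UMIs, 2.56% with at least 10, 2.29% with at least 2 SOX17 UMIs, 4.05% without the TFAP2C condition and 2.47% by the rule on thinned cells. The CHIR+Activin share, 1.99%, became 1.43% with at least 2 SOX17 UMIs and 1.64% on thinned cells. With at least 4 SOX17 UMIs, an alternative chosen after seeing the data, the shares were 1.63% and 1.06%. BMP4 kept the higher share under all of these. The counts of genes 2-fold higher and lower, 127 and 58, were 218 and 114 at a mean of 10 CPM and 51 and 16 at 50 CPM. With only 1 UMI required the counts were 4399 and 1323, but the floor of 3 counts distorts them. A gene without a UMI in CHIR+Activin was set at 1.04 CPM there. With 1 or 2 UMIs in BMP4 it was thus counted as 2-fold higher in CHIR+Activin. The number of such genes was not taken, so the 4399 do not show how many genes were higher. In the 42 BMP4 and 70 CHIR+Activin members without a UMI of MESP1, MESP2, HAND1, TBX6 or APLNR, also chosen after seeing the data, 179 genes were higher and 128 lower. The cause of the other shifts was not tested.

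Of 60 gene ratios followed, 49 were past 2-fold, and 559 of their 584 values under the alternatives stayed past it. FOXA2 ranged from 2.35 to 3.14 on the log2 scale. Outside the calls, PRDM1 (0.71) was −0.02 and DKK1 (0.93) was 0.18 in the members without those mesoderm genes. DLL3 reversed, from −1.13 to 0.51, in the members without those mesoderm genes, where KIT (0.52), DKK4 (0.10), SP5 (0.45), NODAL (0.88), FZD5 (0.86), WNT5A (−0.77), the BMP4 gene (−0.88), FN1 (−0.65) and HMGCS1 (0.74) were within 2-fold. LEFTY2 was 0.93 without the TFAP2C condition. KIT was 0.98 with at least 2 SOX17 UMIs, and on thinned cells KIT was 0.76, ID2 −0.88 and HMGCS1 0.88. Depth limits genes of a few UMIs, and 1 library a treatment leaves culture variation unmeasured. No paired analysis was possible because each treatment has 1 library.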
